A study of Mus musculus with 35 samples.

Results

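The genes described here were 29 subunits of the ligand-gated ion channels for GABA and glutamate, followed across the 35 hypothalamus libraries of a mouse RNA sequencing study. They were taken by name from a list of 29 gene names, out of 49568 gene names counted. The list held 12 GABA-A receptor subunits (Gabra2 to Gabra6, Gabrb1, Gabrb2, Gabrg1, Gabrg3, Gabrd, Gabre and Gabrq), 4 AMPA receptor subunits (Gria1 to Gria4), 7 NMDA receptor subunits (Grin1, Grin2a to Grin2d, Grin3a and Grin3b), 5 kainate receptor subunits (Grik1 to Grik5) and the delta receptor subunit Grid1. It was not the whole of these families, and genes outside it were not counted as members.

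GABA-A receptors are pentamers that let chloride through when GABA binds, and they carry most of the fast inhibition in the brain. AMPA, NMDA and kainate receptors are tetramers that let cations through when glutamate binds, and they carry most of the fast excitation. The hypothalamus is unusually rich in GABA, and input through both kinds of receptor sets the firing of the neurons that govern feeding, body temperature and daily timing.

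All mice were male and of the strain given as B6/J, and tissue was taken at Zeitgeber time 16 (hours after lights-on). Of the control mice, 10 ate freely and 10 went without food for 16 h from lights-on. The genotype S662D, in which an aspartate replaces a serine that kinases modify in the clock repressor PER2, was present in 5 fed and 5 fasted mice. A last group of 5 mice was labelled Per2 ko, and all of these were fasted. The labels give no age, do not say how either allele was made, and describe a dissected block of tissue rather than single nuclei. Each library held polyA RNA from 1 mouse.

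Libraries held between 17959586 and 37027342 counts, and the deepest were S662D libraries. All 15 hypothalamic neuron markers listed were present in every library, among them Hcrt at 55.1 to 131.8 CPM (counts scaled to a common library size), Pmch at 59.0 to 144.1 CPM and Avp at 136.4 to 326.9 CPM. Ttr, a marker of the neighbouring choroid plexus, ran from 1.28 to 1431 CPM and passed 500 CPM in 5 libraries (fed control 2, fasted controls 8 and 9, fed S662D 2 and 5). Per2 was not lower in the libraries labelled Per2 ko: they held 30.3 ± 2.00 CPM (SD, n = 5) against 28.98 ± 2.45 CPM (SD, n = 10) in fasted controls. Per2 was lower in S662D than in control mice, at 18.75 ± 1.98 CPM against 28.2 ± 1.87 CPM fed (log2 fold change −0.59, adjusted p 1.18e-07). The library numbers in the file headers run in separate ranges for controls 1 to 5, the labelled knockout, controls 6 to 10 and S662D, so an effect of genotype and one of the range of numbers cannot be told apart. Within both control ranges and that of S662D, every fed library comes before every fasted one. An effect of fasting and one of that order cannot be told apart either. S662D libraries 2, 3 and 4 of each feeding state carry an additional digit in their library number, whose meaning is not stated.

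PER2 acts on genes by repressing CLOCK and BMAL1, which bind the E-box motif CACGTG. RefSeq promoter windows (GRCm38.p6, 250 bases before to 50 bases after each start) were matched for 21 of the 29 subunits, giving 25 windows. The motif reads the same on both strands and was in 1 of those 25 windows, that of Grin1, against 7.15% of all 32851 windows. The Grin1 stretch is shown because it was the 1 match among the subunits, and because Grin1 RNA was among those higher in fed S662D mice below. It lies on the minus strand at chr2:25319247-25319388, from 201 to 60 bases before the start, and capitals mark the 2 matches.
Grin1: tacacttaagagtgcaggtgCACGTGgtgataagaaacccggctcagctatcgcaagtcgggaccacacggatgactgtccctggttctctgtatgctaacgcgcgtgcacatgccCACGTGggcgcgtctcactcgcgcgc
A match to these letters is not a measured binding site, and any part of it in the Grin1 result was not tested.

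Many of the GABA-A genes lie side by side in the mm10 genome, as annotated in GENCODE vM12. On chromosome 5, Gabrg1 (70751047 to 70842617), Gabra2 (70957597 to 71095849) and Gabra4 (71569749 to 71658308) lie on the minus strand, next to Gabrb1 (71658113 to 72149037) on the plus strand. On chromosome 7, Gabrg3 (56716465 to 57387188) and Gabra5 (57407672 to 57510059) are neighbours on the minus strand. On chromosome X lie Gabre (72255999 to 72274803) and Gabra3 (72432681 to 72656848) on the minus strand and Gabrq (72825178 to 72842602) on the plus strand. The glutamate receptor genes that the results turn on lie apart: Gria1 on chromosome 11 (57011387 to 57330244), Gria2 on 3 (80681450 to 80802835), Grin1 on 2 (25291181 to 25319187), Grin2c on 11 (115249169 to 115267243), Grik3 on 4 (125490700 to 125714173), Grik5 on 7 (25009849 to 25072346) and Grid1 on 14 (34819825 to 35583379). Counts covered all exons of each gene, UTRs included, so isoforms are not separated.

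In fed control mice, the AMPA receptor subunit Gria1 had the highest level per length of the 29. Levels are compared between genes as CPM per kilobase of exon, and each value in this paragraph is the median of 10 fed control libraries on that scale. Gria1 stood at 58.5 and its 10 libraries, 54.9 to 63.7, did not overlap those of any other subunit. Gabra3, an alpha subunit abundant outside the cortex, followed at 32.7. Grin1, the subunit that every NMDA receptor needs, stood at 27.5, and Grik5, a kainate subunit that must pair with another, at 27.0. The libraries of these 3 overlapped in order, so their rank is not resolved. Next came Gabra4 at 24.0, Gabrb2 at 20.0, Gria4 at 18.3, Gria2 at 17.6 and Gabrd at 17.2, each overlapping its neighbour. Gabra4 and Gabrd are partners in receptors outside the synapse that carry a steady inhibitory current. Between Gabra5 at 14.6 and Grik4 at 4.63 every subunit overlapped the next in order.

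Gabre, Grik1, Gabrg3 and Grin2a stood at 3.01, 2.96, 2.75 and 2.62 CPM per kilobase. Grin3b stood at 0.192 and is uncertain, since 32.1% of its exon bases overlap Tmem259 and counting took no account of strand. Gabra6, which marks cerebellar granule cells, did not pass the filter on low counts and reached at most 0.105 CPM in any library. The other 28 subunits passed that filter.

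Within each receptor class, 1 or a few subunits made up most of the RNA per length. Gria1 made up 56.6% ± 1.30 (SD, n = 10) of the summed AMPA level per length in fed controls and 59.4% ± 0.583 (SD, n = 5) in fed S662D mice. Gria2, which in its edited form makes AMPA receptors impermeable to calcium, made up 17.0% ± 0.785 and 15.2% ± 0.441 in the same groups. Grin2c, which gives NMDA receptors a low sensitivity to magnesium block, held the largest share among the GluN2 subunits, 39.6% ± 2.96 in fed controls, and Grin2a the smallest, 9.36% ± 0.965. Grik5 held 50.8% ± 1.39 of the kainate level. Among the alpha subunits listed, Gabra3 held 42.2% ± 2.05 and Gabra4 30.3% ± 2.00. The shares rest on the exon lengths of the authors' annotation, and Grik2 has a short model there. Grin2b and Grin2a have long ones, 24842 and 17933 bases against 5037 for Grin2c. Undivided by length, the fed control median was 137.5 CPM for Grin2b, 56.5 for Grin2c, 55.3 for Grin2d and 47.0 for Grin2a. The first place of Grin2c therefore rests on that division. So does that of Gabra3, at 128.4 CPM against 146.2 CPM for Gabra4, whereas Gria1 (353.8 CPM) stayed above Gria2 (273.6 CPM).

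**Figure D1:**
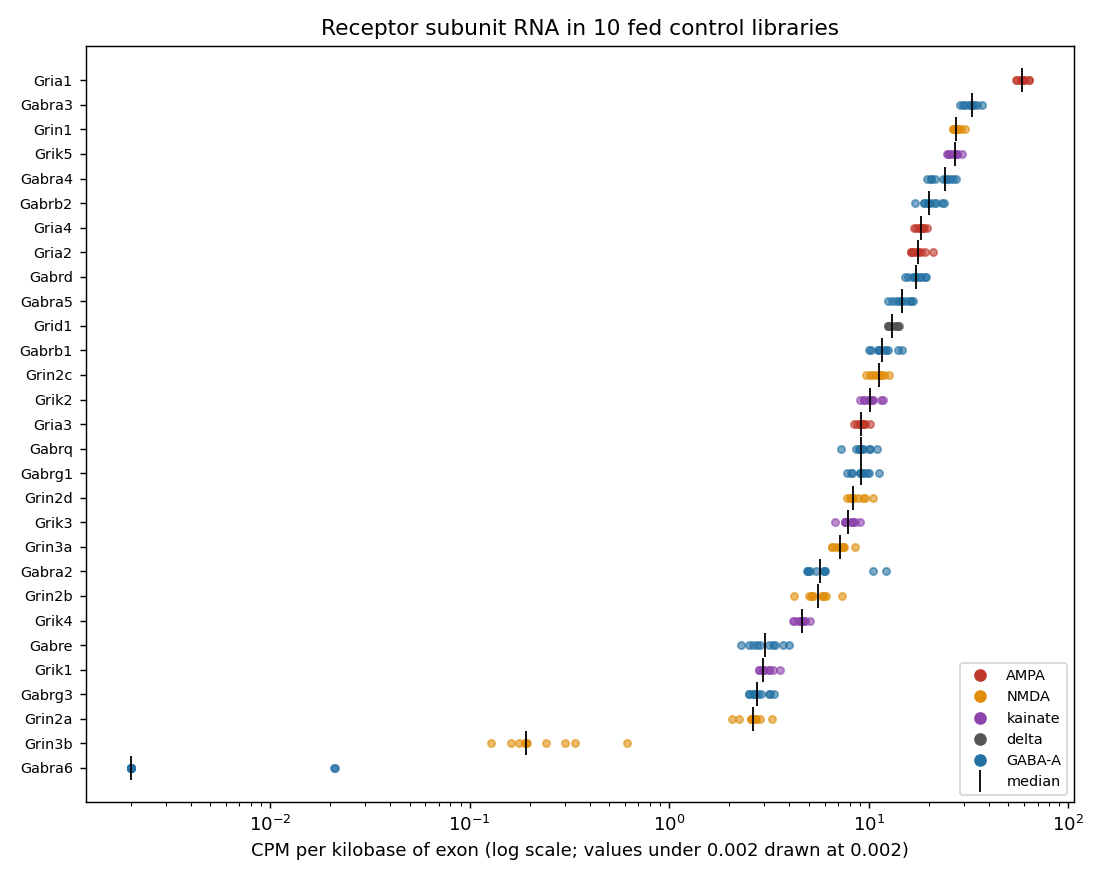
CPM per kilobase of exon (log axis) for the 29 subunits in the 10 fed control libraries, 1 point per library, with the median as a bar and colour for the receptor class. Gria1 lies above all others, 26 subunits span 2.62 to 32.7, and Grin3b and Gabra6 lie far below them.

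Fasting for 16 h called none of the 28 subunits tested in control mice. A gene is called where edgeR's quasi-likelihood test gave an adjusted p below 0.05 (Benjamini-Hochberg, over all genes tested), and 3.88% of the 18063 genes tested were called. The subunits' median log2 fold change was 0.00, with 13 of 28 above 0, beside a median of 0.00 over all genes. Only Grin2c had an unadjusted p below 0.05 (13.3% of all genes did), with a log2 fold change of 0.12 (SE 0.05), and DESeq2 also called 0. All 10 glucocorticoid-induced genes listed were called higher in the same comparison.

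Fasting went in opposite directions in 2 parts of the control mice. The control mice fall in 2 ranges of library numbers, replicates 1 to 5 and 6 to 10 of each feeding state, and fasting was estimated in each range from 5 fed and 5 fasted mice. This comparison was added after the data were seen. In controls 1 to 5, 7 subunits were higher after fasting and 0 lower, where 6.96% of 16909 genes tested were called higher, 7.35% lower and 14.3% in either direction. In controls 6 to 10, 8 subunits were lower and 0 higher, where 3.76% of genes were called lower, 4.05% higher and 7.81% in either direction. The subunits' median log2 fold change was 0.10 with 24 of 28 above 0 in the first range, and −0.13 with 6 of 28 above 0 in the second. Over all genes tested the medians were 0.00 and 0.01. The counts depend on the fit: with the same control mice fitted beside the S662D and labelled knockout libraries and without the other control range, 2 subunits were called in controls 1 to 5 (7.4% of genes) and 0 in controls 6 to 10 (1.71% of genes), with medians of 0.10 and −0.14.

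The difference between the 2 responses was itself called for 14 of 28 subunits, all lower in controls 6 to 10, where 8.4% of genes were called lower, 9.28% higher and 17.7% in either direction. The 14 were Gabre, Gabrb1, Gabrg1, Gabrg3, Gabra5, Gabrq, Gabra4, Gabrb2 and Gabra3 of the 11 GABA-A subunits tested, and Gria2, Gria3, Grik2, Grik3 and Grin3a of the 17 glutamate receptor subunits tested. Of these 14, 12 kept their call under all 27 alternatives run, and Gabrb2 and Grik3 did not. The count was 12 to 14 when any 1 of the 20 control libraries was left out. The subunits that did not differ in this test included Gria1, Gria4, Grin1, Grin2a, Grin2c, Grik4, Grik5 and Gabrd. For Gabrd the log2 fold changes of fasting were 0.07 and 0.14, and for Gria4 0.03 and 0.04.

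The beta subunit Gabrb1 shows the pattern library by library. In fed controls 1 to 5 it held 164.7, 156.2, 138.5, 156.4 and 141.8 CPM, and in fasted controls 1 to 5 it held 165.1, 173.0, 178.9, 169.5 and 194.7 CPM. In fed controls 6 to 10 it held 172.5, 194.8, 153.2, 202.3 and 169.2 CPM, and in fasted controls 6 to 10 it held 153.3, 145.2, 158.4, 139.7 and 149.2 CPM. The first range had its fasted libraries all above its fed ones, and in the second range only the fed library at 153.2 CPM lay among the fasted ones. The log2 fold changes were 0.22 (SE 0.06, adjusted p 0.0215) and −0.26 (SE 0.06, adjusted p 0.0143), and their difference was −0.47 (SE 0.09, adjusted p 0.00115).

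Gabrg1, a gamma subunit found in parts of the hypothalamus and in glia, behaved alike. It held 64.3, 70.7, 61.2, 64.8 and 72.7 CPM in fed controls 1 to 5 and 78.2, 76.9, 76.5, 77.3 and 87.9 CPM in fasted controls 1 to 5. It held 71.1, 77.1, 79.0, 88.7 and 74.4 CPM in fed controls 6 to 10 and 65.4, 72.7, 71.9, 64.6 and 62.8 CPM in fasted controls 6 to 10. In the first range no fasted library overlapped the fed ones, and in the second range fasted libraries 7 and 8 lay among the fed ones. The difference of the responses was −0.46 (SE 0.08, adjusted p 0.00041). Gabrg3, another gamma subunit, had a difference of −0.46 (SE 0.08, adjusted p 0.000512), with means of 31.3 fed and 36.0 CPM fasted in the first range and 36.6 fed and 30.55 CPM fasted in the second.

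Gabre, the epsilon subunit, which is concentrated in the hypothalamus and brainstem, had the largest difference of the 14, −0.52 (SE 0.14, adjusted p 0.00737). Its fed controls 1 to 5 held 15.6, 10.9, 11.8, 12.5 and 13.1 CPM, and its fasted controls 1 to 5 held 14.9, 16.7, 14.7, 19.2 and 17.1 CPM. Its fed controls 6 to 10 held 15.04, 18.8, 16.0, 17.5 and 13.5 CPM, and its fasted controls 6 to 10 held 15.7, 13.2, 16.5, 13.9 and 13.1 CPM. The fed and fasted libraries overlapped in both ranges, and the fasting call was made in the first range alone (log2 fold change 0.37, SE 0.10, adjusted p 0.00907). Gabrq, the theta subunit with a like distribution in the brain, had a difference of −0.37 (SE 0.10, adjusted p 0.00892), and neither range alone passed the threshold for it. Gabra5, an alpha subunit found largely outside the synapse, had a difference of −0.41 (SE 0.09, adjusted p 0.0016) and was called in both ranges.

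Among the glutamate receptor subunits called, Gria2 had the largest difference, −0.34 (SE 0.08, adjusted p 0.00328). It held 271.8, 298.4, 252.0, 254.6 and 254.3 CPM in fed controls 1 to 5 and 297.3, 293.4, 303.1, 290.1 and 344.7 CPM in fasted controls 1 to 5. It held 263.0, 285.3, 275.6, 324.1 and 275.5 CPM in fed controls 6 to 10 and 258.8, 249.3, 274.2, 246.0 and 261.6 CPM in fasted controls 6 to 10. Fasted libraries lay mostly above fed ones in the first range and mostly below them in the second, with an overlap in each. The estimates for Grin2b (−0.40, SE 0.16) and Grin3b (1.12, SE 0.55) were larger but did not pass the test. The remaining differences called were Grik2 −0.31, Grin3a −0.30, Gabra4 −0.30, Gabrb2 −0.27, Gabra3 −0.27, Gria3 −0.26 and Grik3 −0.24.

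**Figure D2:**
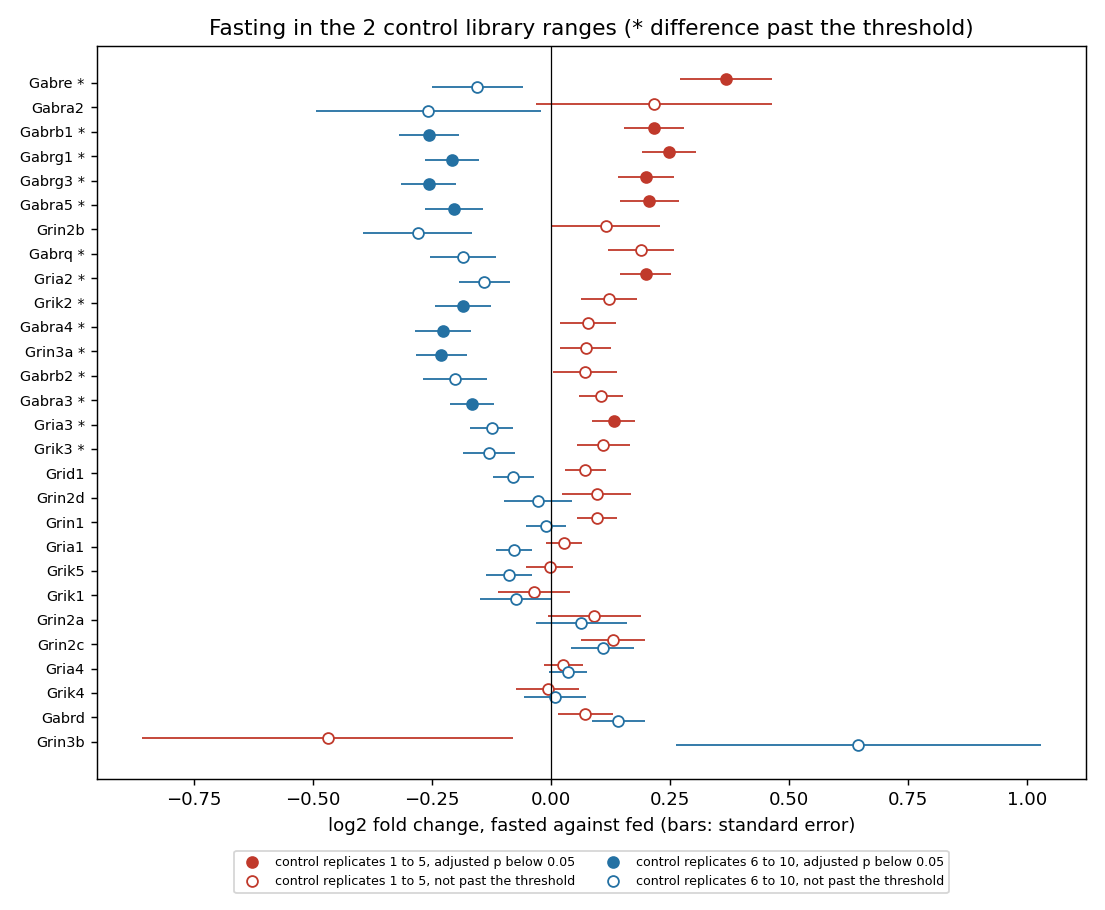
log2 fold change of fasting against feeding with its standard error for the 28 subunits tested, in control replicates 1 to 5 (red) and 6 to 10 (blue), with filled points past the threshold and a star where the difference passed. The starred subunits have red points above 0 and blue points below 0, while Gria4, Grik4, Grin2c and Gabrd do not separate.

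The same 2 ranges were also compared within each feeding state. Among fed controls, 4 subunits were higher in replicates 6 to 10 than in 1 to 5 (Gabrg1, Gabra4, Gabrb1 and Gabrg3), where 0.958% of genes were called higher, 1.21% lower and 2.17% in all, and 0 were lower. Among fasted controls, 8 subunits were lower in replicates 6 to 10 (Gabra5, Gabrb1, Gabrg1, Gabrg3, Gabrq, Gria2, Gria3 and Grik2), where 6.53% of genes were called lower, 6.25% higher and 12.8% in all, and 0 were higher. With both feeding states together and feeding as a term, none was called, where 0.183% of genes were called, and 4 had an unadjusted p below 0.05 against 9.46% of all genes, and DESeq2 called 0. The count for fed controls went to 0 without fed control 4, 7 or 9, to 1 without 3 or 5 and to 2 without 2, and the count for fasted controls to 4 without fasted control 5. Genes called in all went from 367 to 15, 7 and 3 without fed control 4, 7 or 9. Among fasted controls they went from 2161 to 975 without fasted control 5. The count for fasting in controls 1 to 5 fell from 7 to 3 without fed control 3 or fasted control 5, and that in controls 6 to 10 from 8 to 2 without fed control 9, to 4 without fasted control 9 and to 5 without fasted control 10. Genes called in all went from 2419 to 1672 and 1473 in the first range. In the second they went from 1321 to 522, 789 and 999. Without the 5 libraries rich in Ttr, which removes 2 of the 5 fasted controls 6 to 10, fasting in that range called 0 subunits. Their median was −0.11, and 528 of 16977 genes were called. The difference between the 2 responses then called 12 subunits, where 2333 of 16977 genes were called.

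Markers of several cell types and neighbouring regions also differed between the 2 ranges. In controls 1 to 5 the 10 listed oligodendrocyte markers had a median log2 fold change of −0.28 on fasting and 8 were called lower. In controls 6 to 10 their median was 0.13 with 2 called higher and 2 lower. Their summed level ran from 9095 to 10520 CPM fed and 8622 to 9221 CPM fasted in the first range, and from 7849 to 9371 CPM fed and 8999 to 9713 CPM fasted in the second. None of the 10 was at 0 in any group. Of 10 striatum markers, 5 were called higher on fasting in controls 1 to 5 (median 0.24) and 1 lower in controls 6 to 10 (median −0.08), and the difference was called lower for 4 (median −0.39), as for the subunits. Of 10 microglia markers, 6 were called lower in controls 1 to 5 and 2 in controls 6 to 10, the difference was called higher for 4 (median 0.28), and among fasted controls 9 were higher in replicates 6 to 10. The 7 choroid plexus markers tested had a median difference of 3.11 with 0 called and 5 at an unadjusted p below 0.05. Of 12 pan-neuronal markers, 4 had a higher and 3 a lower difference (median 0.14), while their sum lay between 6983 and 7524 CPM in all 20 control libraries. The part of these cells and regions in the subunit results was not tested, and in bulk tissue fewer cells of a type and less RNA per cell cannot be told apart.

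Partner genes of the receptors followed in part. Of 15 auxiliary subunits, 4 had a lower and 1 a higher difference between the 2 responses to fasting, against 8.4% and 9.28% of all genes. Neto1 (−0.53, SE 0.11, adjusted p 0.00161) and Neto2 (−0.44, SE 0.08, adjusted p 0.00047), which attach to kainate receptors, were among the lower, and Cacng7 was the higher (0.23, SE 0.05). Of 20 synaptic scaffold genes, 4 were lower and 2 higher, with Homer1 at −0.42 (SE 0.08) and Dlg2 at −0.34 (SE 0.06). The metabotropic receptor gene Grm5 was lower (−0.36, SE 0.07), and the GABA-B receptor gene Gabbr1 was higher (0.20, SE 0.05). Among the 10 genes for GABA synthesis, transport and chloride, Gad2, which makes GABA, was lower (−0.32, SE 0.07), and among 10 genes for glutamate the transporters Slc1a2 and Slc1a3 were lower (both −0.26) and Slc17a7 higher (0.56). None of the 10 glucocorticoid-induced genes was called in this difference (3 at an unadjusted p below 0.05, all lower), with medians on fasting of 0.91 and 0.82. Among fasted controls, however, all 10 were lower in replicates 6 to 10 (median −0.30) and 4 were called.

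In S662D mice fasting called none of the 28 subunits, where 2.64% of all genes were called. The median log2 fold change of the subunits was −0.10, with 6 of 28 above 0, against 0.00 over all genes. An unadjusted p below 0.05 was found for 8 subunits, of which 7, namely Gabrb1 (−0.25), Gabrq (−0.23), Gabrg3 (−0.21), Grik2 (−0.19), Grin3a (−0.18), Grik1 (−0.18) and Gria1 (−0.14) were lower and Grin2c (0.19) higher, where 6.69% of all genes were lower and 7.63% higher at that level. DESeq2 called 1, and the count went from 0 to 1 without fed S662D 1 or without fasted S662D 1 or 5. The response did not differ from that of all 20 controls for any subunit or any other gene tested (0%), with an unadjusted p below 0.05 for Gabrq (−0.24) and Gria1 (−0.11), where 6.37% of all genes had one, and DESeq2 called 0. Set against controls 1 to 5 alone, the response of 6 subunits was lower in S662D mice, where 2.73% of genes were called, and against controls 6 to 10 alone that of 0, where 0% were called. Of the partner genes, Glul, the glutamine synthetase of astrocytes, rose on fasting in control (0.30, SE 0.04) and S662D mice (0.53, SE 0.06).

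In fed mice, 5 subunits were higher in S662D than in control mice and 0 lower, where 4.69% of all genes were called 3.12% higher and 1.57% lower. They were the AMPA subunit Gria1, the NMDA subunit Grin1, the kainate subunits Grik3 and Grik5, and Grid1, which organises synapses by binding cerebellins. The median log2 fold change over the 28 was 0.14 with 23 above 0, against −0.01 over all genes. All 13 subunits with an unadjusted p below 0.05 were higher, as were 11.6% of all genes.

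Grik3 held 76.6, 86.1, 82.3, 101.5 and 73.8 CPM in the 5 fed S662D libraries and 61.0 to 80.95 CPM, with a median of 70.9, in the 10 fed controls. S662D libraries 2, 3 and 4 lay above every control, and 1 and 5 within the controls. The log2 fold change was 0.24 (SE 0.06, adjusted p 0.0179). Gria1 held 374, 404, 386, 411 and 388 CPM in S662D and 331.5 to 385 CPM, with a median of 354, in controls, which gave 0.14 (SE 0.04, adjusted p 0.0202) on the log2 scale. Only S662D library 1 lay within the range of the controls. Grid1 held 84.45, 92.2, 96.8, 94.35 and 83.6 CPM in S662D and 75.8 to 86.1 CPM, median 79.6, in controls (0.17, SE 0.04, adjusted p 0.0212).

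Grid1 libraries 2, 3 and 4 again lay above all controls. Grik5 held 149.5, 157.1, 160.1, 168.8 and 136.8 CPM in S662D and 127.3 to 151.4 CPM, median 139.3, in controls (0.16, SE 0.05, adjusted p 0.0424). Grin1 held 288.7, 317.5, 303.6, 341.9 and 254.8 CPM in S662D and 255.4 to 293.9 CPM, median 266.6, in controls (0.16, SE 0.05, adjusted p 0.0444). For both, libraries 2, 3 and 4 lay above every control, library 1 lay within the controls and library 5 within or just below them. Grin1 is uncertain, because 13.5% of its exon bases overlap the antisense gene Grin1os and counting took no account of strand.

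The fed calls were lost without the 3 S662D libraries whose number has the additional digit, in a fit with 2 fed S662D libraries in place of 5. With the other 2 S662D libraries alone, the log2 fold changes were 0.07 for Grik3, 0.10 for Gria1, 0.06 for Grid1, 0.05 for Grik5 and 0.01 for Grin1, and 0 subunits were called (0.0854% of genes). With the digit as a term 0 were called as well (0.127% of genes), and with the digit libraries alone 12 (16.9% of genes). Gria1 and Grik3 were not called when S662D libraries were compared by digit, as described below. Their log2 fold changes there were 0.05 (SE 0.04, adjusted p 0.405) and 0.13 (SE 0.07, adjusted p 0.219). Leaving out fed S662D 2, 3 or 4 gave 0 calls, with adjusted p of 0.0557 to 0.289 for the 5. The count was 3 without fed control 2, 3, 4, 6 or 10, 4 without fed control 1 or 5, 8 without control 7, and 7 without control 9 or S662D 1 or 5. Against controls 1 to 5 alone 11 subunits were called (9.79% of genes), and against controls 6 to 10 alone 0 (0.185% of genes). Against controls 6 to 10 the log2 fold changes were still 0.18 for Grik3, 0.14 for Grik5, 0.13 for Grin1, 0.12 for Grid1 and 0.09 for Gria1, from 5 controls in place of 10. Marker sums differed along with the digit in fed S662D mice. Cortex and hippocampus markers summed to 956.2 to 990.0 CPM in the 3 libraries with it, 779.7 to 821.9 CPM in the 2 without it and 764.5 to 986.2 CPM in fed controls, and oligodendrocyte markers to 7844 to 8343, 9112 to 9332 and 7849 to 10520 CPM. Oligodendrocyte precursor markers summed to 777.9 to 806.6, 705.0 to 718.5 and 659.3 to 690.5 CPM, and thalamus and habenula markers to 1275 to 1533, 1027 to 1114 and 1012 to 1219 CPM. Against all fed controls, 3 of 10 precursor markers were called higher, 2 of 10 oligodendrocyte markers lower, and 2 of 10 vessel markers higher and 1 lower. The part of these cells and regions in the subunit results was not tested.

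In fasted mice, the NMDA subunit Grin2c was higher and the AMPA subunit Gria2 lower in S662D than in control mice, where 5.57% of all genes were called, 3.35% higher and 2.23% lower. The median over the 28 was 0.03 with 17 above 0. Grin2c held 62.0, 71.75, 75.2, 75.9 and 68.35 CPM in S662D libraries and 52.6 to 68.5 CPM, median 61.1, in fasted controls (0.22, SE 0.06, adjusted p 0.0167). Libraries 2, 3 and 4, those with the additional digit, were above every control. Gria2 held 255, 193, 253, 221 and 276 CPM in S662D libraries and 246 to 345 CPM, median 282, in fasted controls (−0.23, SE 0.07, adjusted p 0.0416), and S662D libraries 2 and 4 lay below every control. Leaving out fasted S662D 2, 3 or 4 gave 0 calls (adjusted p 0.0609 to 0.221), and the count was 1 without fasted control 1, 2, 3, 4, 5 or 8, 3 without control 6 and 5 without S662D 1. Without the digit libraries the log2 fold changes were 0.11 for Grin2c and −0.08 for Gria2, with 0 subunits called (0.112% of genes). Against controls 6 to 10 alone 0 were called (0.269% of genes), where Grin2c stood at 0.23 (adjusted p 0.0798) and Gria2 at −0.11 (adjusted p 0.458). Other markers differed in the same comparison: 5 of 10 oligodendrocyte precursor markers (median 0.18) and 3 of 10 vessel markers (median 0.26) were called higher, and choroid plexus markers had a median of −1.29 with 0 of 10 called. Their part in the subunit results was not tested.

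**Figure D3:**
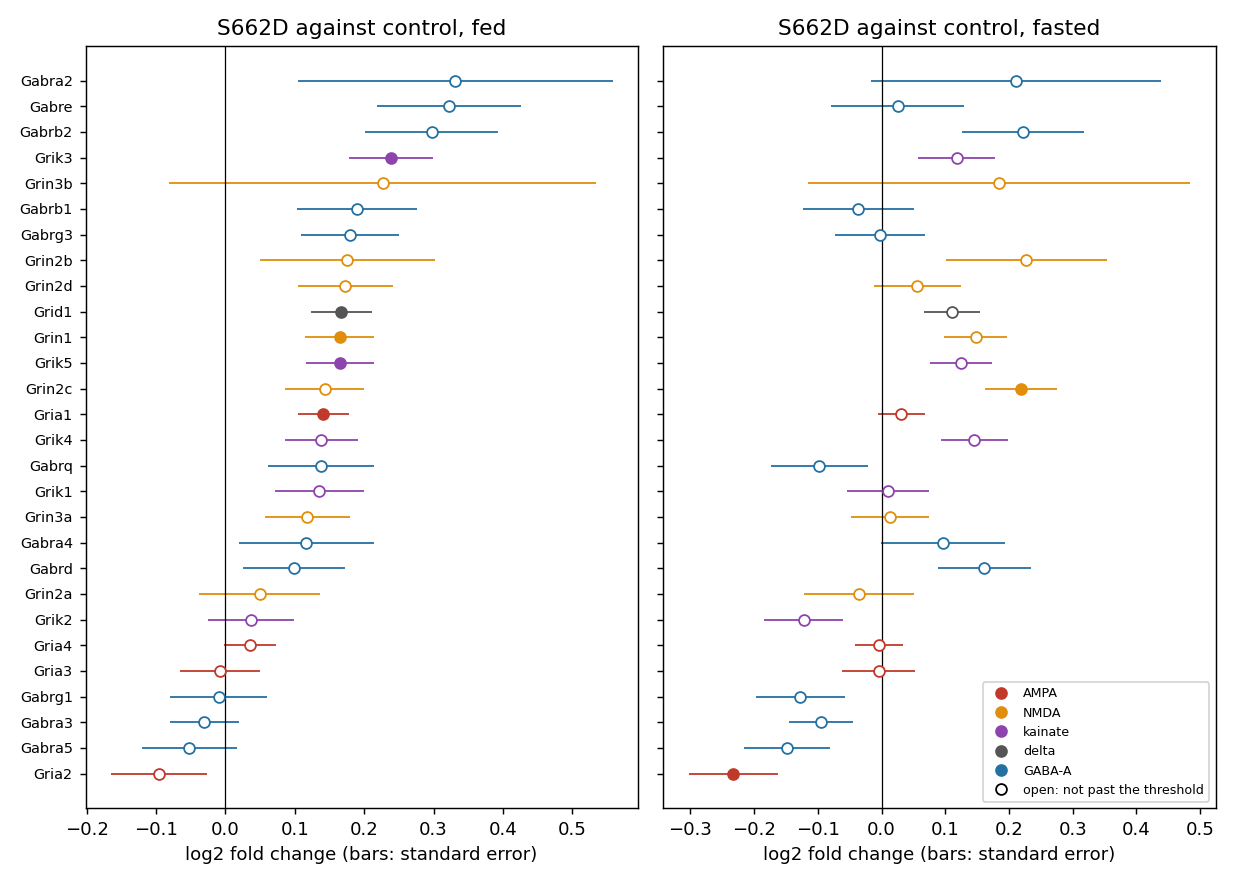
log2 fold change of S662D against control mice with its standard error for the 28 subunits tested, fed (left) and fasted (right), coloured by receptor class, filled where past the threshold. Fed, 23 of 28 points lie above 0 and 5 are filled, and fasted, Grin2c is filled above 0 and Gria2 below it.

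Within the S662D mice, the 6 libraries with the digit were compared with the 4 without it, with feeding as a term, a comparison added after the data were seen. Of 28 subunits, 9 were higher with the digit and 0 lower, where 14.6% of genes were called, 8.44% higher and 6.2% lower. Gabrb2, a beta subunit of many synaptic GABA-A receptors, held 177.1, 186.7 and 183.9 CPM fed and 136.9, 170.1 and 165.9 CPM fasted in libraries with the digit, and 124.3 and 127.5 CPM fed and 131.4 and 120.7 CPM fasted in those without. The libraries with the digit were all higher, and the log2 fold change was 0.42 (SE 0.06, adjusted p 0.000247). Gabra4 held 171.3, 187.3 and 154.3 CPM fed and 152.0, 151.1 and 166.5 CPM fasted with the digit, and 124.5 and 133.0 CPM fed and 131.6 and 117.2 CPM fasted without (0.37, SE 0.06, adjusted p 0.000367). Here too the libraries did not overlap.

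The other 7 were Grin2a (0.26), Grin2d (0.24), Grin1 (0.20), Grin3a (0.20), Grin2c (0.19), Grik5 (0.17) and Grid1 (0.15), so 5 of the 9 were NMDA subunits. Grin1, Grik5 and Grid1 are also among those higher in fed S662D than in control mice. The count of 9 fell to 4 without fed S662D 5 or fasted S662D 1, and to 3 without the libraries rich in Ttr. Genes called in all fell from 2558 to 1733, 1639 and 1429 in these fits. The cortex and hippocampus markers had a median of 0.18 in this comparison with 3 of 9 called higher, their summed level being 956.2 to 990.0 CPM fed with the digit and 779.7 to 821.9 CPM without, and 902.7 to 932.9 CPM and 803.5 to 853.1 CPM fasted. Thalamus and habenula markers had a median of 0.27 with 5 of 10 called higher, vessel markers a median of 0.27 with 4 of 10, and oligodendrocyte precursor markers a median of 0.15 with 4 of 10. Striatum markers had a median of 0.27 with 1 of 10 called higher. Other lists had medians below 0. They included hypothalamic neuron markers (−0.09, 1 of 15 called lower) and oligodendrocyte markers (−0.09, 2 of 10 called lower). Microglia markers had a median of −0.04, with 2 of 10 called lower and 1 higher, and choroid plexus markers one of −0.71, with 0 of 10 called. The part of such cells and tissue in the subunit results was not tested.

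**Figure D4:**
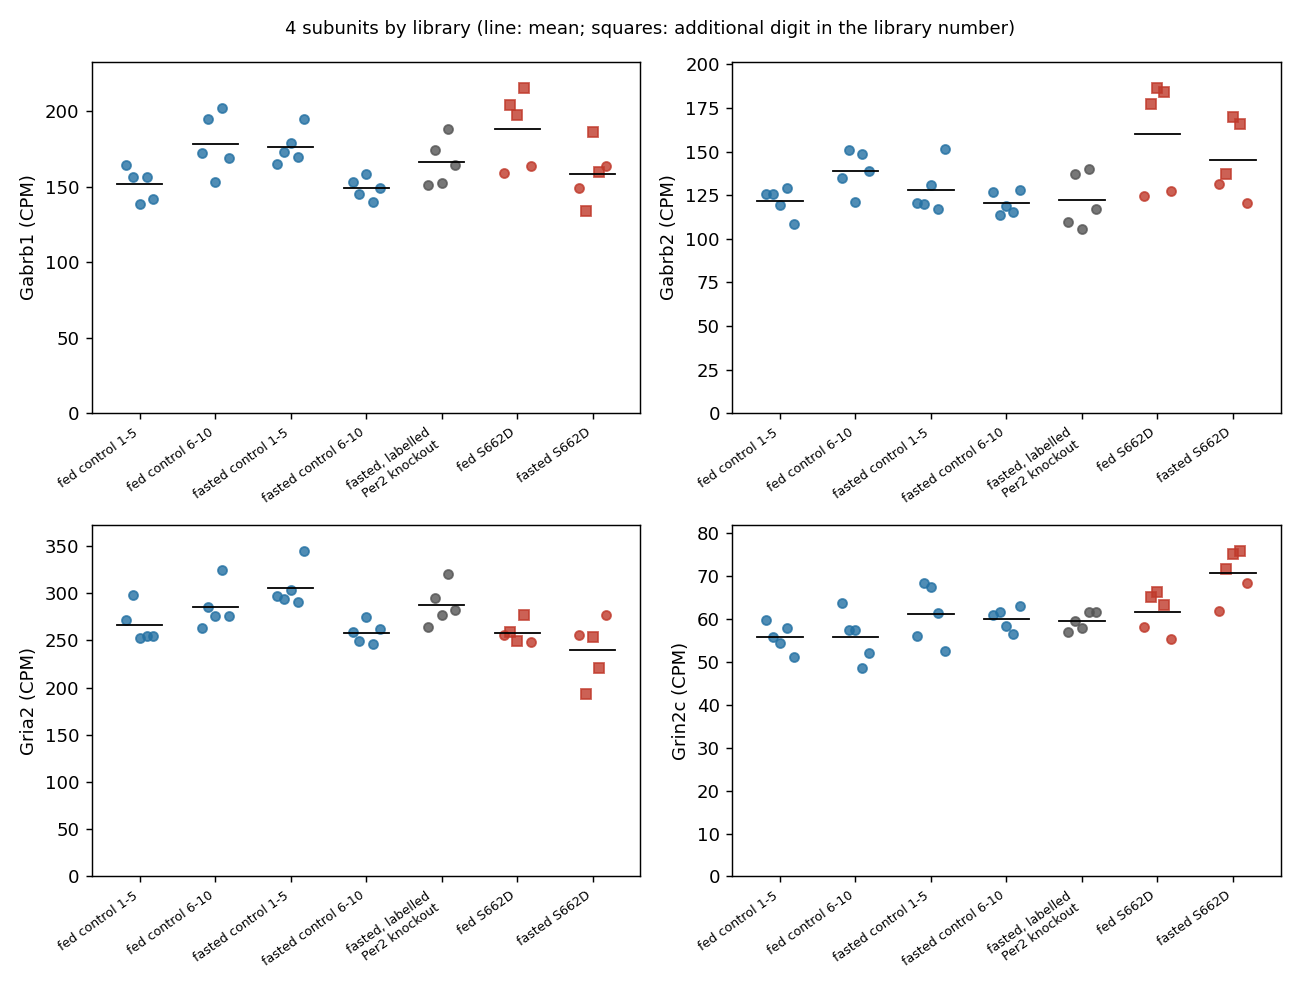
CPM of Gabrb1, Gabrb2, Gria2 and Grin2c by library in the 7 sets of libraries, with the mean as a line and squares for S662D libraries with the additional digit. Gabrb1 lies higher fasted than fed in controls 1 to 5 and lower in controls 6 to 10, and the squares lie above the circles for Gabrb2.

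Partner genes higher in S662D mice included the AMPA receptor partner Cacng2 (0.18 fed and 0.24 fasted), the GABA-B receptor Gabbr2 (0.23 and 0.22), the scaffolds Shank1 (0.29 and 0.27) and Shank2 (0.27 and 0.26), and Slc12a5, the chloride exporter that sets the direction of GABA currents (0.15 and 0.15). With the S662D libraries without the digit alone, the fed estimates of Shank1 (−0.0106) and Shank2 (−0.0204) turned below 0. Fed, 3 of 15 auxiliary subunits, 3 of 20 scaffolds, 3 of 9 metabotropic and GABA-B receptors and 1 of 10 GABA genes were called higher. Cnih3, named after its value was seen, was called lower fed (−0.23). Fasted, the counts called higher in these lists were 5, 2, 3 and 4. Of the 10 genes for glutamate, 0 were called fed and 0 fasted. Over all genes, 3.12% were called higher fed and 3.35% fasted. In the digit comparison Shisa6 (0.59), Gabbr2 (0.29), Shank1 (0.36) and Shank2 (0.34) were called higher too.

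None of the 28 subunits was called in the labelled knockout against fasted controls, where 0.0277% of genes were called, and 0 had an unadjusted p below 0.05 against 6.07% of all genes. The median was 0.02 with 19 of 28 above 0, and DESeq2 called 0. The largest positive estimates were those of Grin3b (0.23, SE 0.31) and Gabre (0.13, SE 0.11). The largest negative ones were those of Gabra2 (−0.24, SE 0.24) and Grin2d (−0.11, SE 0.07). Gabra5 held 45.0, 55.9, 44.15, 47.3 and 46.0 CPM in the 5 libraries against 37.9 to 52.4 CPM in fasted controls. Its library 2 lay above every control and the others within them.

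Gabra2, an alpha subunit through which benzodiazepines reduce anxiety, split into separate levels in some sets of libraries. In controls 1 to 5 and the labelled knockout its 15 libraries held 37.3 to 56.6 CPM. In controls 6 to 10 and S662D its 20 libraries held 34.5 to 92.6 CPM, with fed controls 6 to 10 at 46.0, 45.4, 80.6, 92.6 and 45.6 CPM and fasted controls 6 to 10 at 71.2, 73.2, 37.2, 37.6 and 40.8 CPM. Fed S662D libraries held 74.8, 75.8, 41.9, 79.9 and 43.1 CPM and fasted S662D libraries 39.9, 67.8, 34.5, 64.3 and 73.6 CPM. No library lay between 56.6 and 64.3 CPM. The levels crossed genotype and feeding, and no comparison called the gene, with log2 fold changes of 0.33 (SE 0.23) fed and 0.21 (SE 0.23) fasted for S662D against control.

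Gabra2 RNA is known to be low in C57BL/6J mice because of an intronic deletion, and the labels give B6/J for all mice here. The genotype at the locus was not examined, and its part in these levels was not tested. Gm15446, chosen after its values were seen, held 12.5 and 13.03 CPM in fed controls 8 and 9 and 12.6 and 11.1 CPM in fasted controls 6 and 7, and 21.7 to 24.3 CPM in the other fed controls 6 to 10. Those 4 libraries are the ones with high Gabra2 among controls 6 to 10. Because Gm15446 was chosen with its values known, this match is not a test. Its values in most other libraries are not given here. Fasted S662D 5, high in Gabra2, held 21.6 CPM of Gm15446 and so departs from that pattern.

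**Figure D5:**
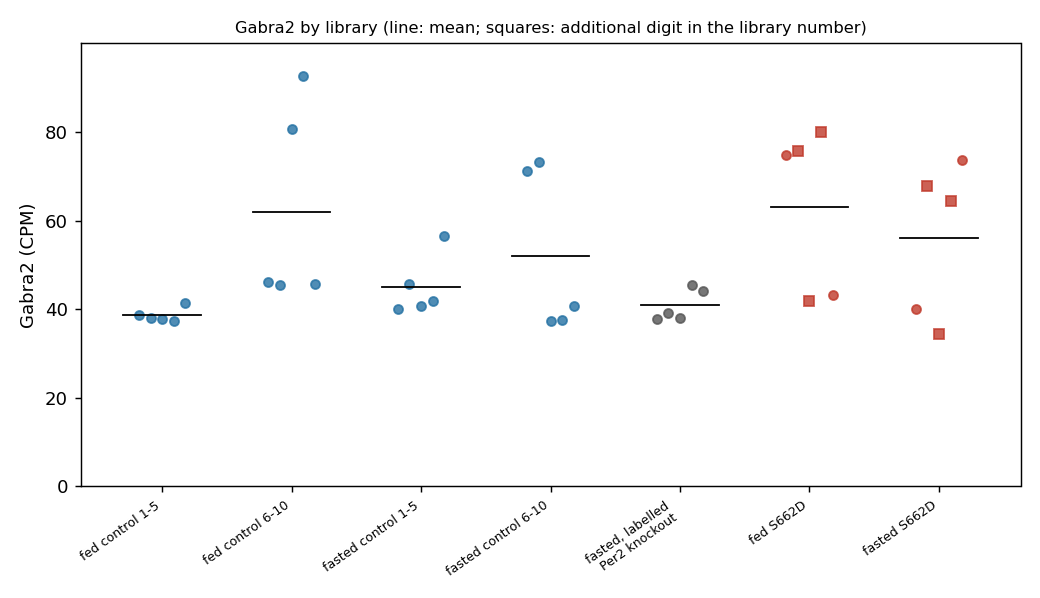
CPM of Gabra2 by library in the 7 sets of libraries, with the mean as a line and squares for S662D libraries with the additional digit. Controls 1 to 5 and the labelled knockout stay at or below 56.6 CPM, and 10 libraries of controls 6 to 10 and S662D lie at 64.3 CPM or above.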

How the data were processed

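Polyadenylated RNA from 35 mouse tissue blocks holding the hypothalamus was sequenced as paired 150-base reads, 1 library per mouse. The authors deposited raw read counts per gene and library, made with featureCounts 2.0.1 on GENCODE vM12 exons without regard to strand and with multi-mapping reads counted, per the file headers. The alignment used STAR 2.7.10b and mm10, per the submitters' processing notes. Reads shared by near-identical genes can therefore be counted at each copy.

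Genes were kept by edgeR's filterByExpr (minimum count 10), which left 18063 genes, and scaled by TMM. All 35 libraries entered 1 fit of edgeR 4.0.16 (R 4.3.3, limma 3.58.1), with quasi-likelihood tests and Benjamini-Hochberg adjustment over all genes, called below 0.05. CPM come from edgeR's cpm function on TMM-scaled library sizes, and levels between genes were divided by exon length. The common biological coefficient of variation was 0.0900. The procedure was tested on simulated data. DESeq2 1.42.0, other scaling and filters, each library left out, parts of the controls and of S662D, and a replicate block were alternatives. Fits within the control replicate ranges (16909 genes), the digit comparison (17479 genes) and the libraries above 500 CPM of Ttr were added after seeing the data. The members and gene lists were chosen with earlier results of these data known. All 29 members could be named, and of the other lists at most the 3 called genes with the smallest adjusted p per list and comparison; a gene named beyond that is said to be chosen after its values were seen. P-values judge a difference against the spread between libraries within groups, estimated jointly over the groups of a fit.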

Additional observations from a re-analysis of the deposited data

Results flagged for a closer look

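Single libraries stood apart from the rest of their group for 7 of the 143 groups of values tested with Dixon's ratio, a test that chance passes in about 1 of 20 groups. Fed control 9 was highest for Grin3a at 104.2 CPM, and fed control 4 was highest for Grin3b at 2.019 CPM. Fasted control 5 was lowest for Grik4 at 21.75 CPM and highest for Gabrb2 at 151.3 CPM. Fasted S662D 4 was lowest for Grik4 at 26.59 CPM. Fed S662D 4 was highest for Gabrq at 64.72 CPM. In the labelled knockout, library 2 was highest for Gabra5 at 55.89 CPM.

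The response to fasting differed between control replicates 6 to 10 and 1 to 5 for 14 subunits, by the test of the difference itself. As log2 differences, GABA-A subunits gave Gabre −0.52, Gabrb1 −0.47, Gabrg1 −0.46, Gabrg3 −0.46, Gabra5 −0.41, Gabrq −0.37, Gabra4 −0.30, Gabrb2 −0.27 and Gabra3 −0.27. Glutamate receptor subunits gave Gria2 −0.34, Grik2 −0.31, Grin3a −0.30, Gria3 −0.26 and Grik3 −0.24. The 2 ranges differ in library numbers, and what else differed between them is not given in the labels.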

How the results depend on the processing

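Counts of subunits called depended most on which control and S662D libraries entered. With controls 1 to 5 alone, fasting in control called 2, the difference in fasting response between genotypes 6, S662D fed 11 and S662D fasted 5. The shares of all genes called were 7.4%, 2.73%, 9.79% and 9.45%. With controls 6 to 10 alone, S662D fed and fasted each called 0 (0.185% and 0.269% of genes). With digit libraries only, S662D fed called 12 (16.9% of genes), fasted 7 (17.1%) and fasting in S662D 2 (3.71%). Without them, or with the digit as a term, S662D fed and fasted each called 0. Of all genes, 0.0854% and 0.112% were called without them and 0.127% and 0.111% with the term. Fasting in S662D with the term called 2 (3.3% of genes). Without the digit libraries the fed S662D estimates of Shank1 (−0.0106), Shank2 (−0.0204) and Nlgn2 (−0.00574) reversed. DESeq2 called 1 for fasting in S662D, 4 for S662D fasted and 8 between fed control ranges, where it called 871 of 16909 genes. Library size alone gave 1 for fasting in S662D. With no filter, S662D fasted called 1 and fed control ranges 9 (875 of 33813 genes). With only the groups compared S662D fasted called 0. Without the Ttr libraries the counts were 3 for S662D fed, 0 for fasting in controls 6 to 10, 1 for fed ranges, 3 for fasted ranges and 3 for the digit. Those after S662D fed stood beside 528, 152 and 796 of 16977 genes and 1429 of 17828 genes, in that order. Without division by length, 18 of 29 subunits stayed within 3 places of their rank. The cause was not tested.

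Leaving out 1 library gave 0 to 8 for S662D fed, 0 to 5 for S662D fasted, 0 to 1 for fasting in S662D, 3 to 8 for fasting in controls 1 to 5, 2 to 8 in controls 6 to 10, 12 to 14 for their difference, 0 to 5 and 4 to 9 for fed and fasted ranges, and 4 to 11 for the digit. Fasting in control, the genotype difference in fasting response and the labelled knockout stayed at 0. Over all genes, S662D fed called 847, against 1741 with controls 1 to 5, 33 with controls 6 to 10 and 16 without the digit libraries. Of 88 results for single genes, 22 kept their call under every alternative run.

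Replicate numbers did not pair the samples: same-numbered fed and fasted controls correlated at −0.191 to 0.0587, and fed and fasted S662D at −0.109 to 0.16, with 0 of 10 and 1 of 5 matching best. With a replicate block, S662D fed called 11 and S662D fasted 7. Fasting in controls 1 to 5 and in controls 6 to 10 each called 5, and their difference 13. For these control tests 1832, 856 and 2288 of 16909 genes were called. In the S662D fits with the block, controls 6 to 10 had no S662D library of the same number. Those S662D counts therefore rest on controls 1 to 5 only, and are not separate from the counts with controls 1 to 5 alone.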
